A study of Mus musculus with 6 samples.

Results

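The genes described here are 42 genes of DNA replication and mitosis, measured in 3 tissues of the embryonic mouse limb, on arrays labelled as a mutant of Tgfbr2, which encodes a TGF-beta receptor, or as control. They were chosen by name: a gene was a member where the array design carried its symbol or an older one (Cdk1 is carried as Cdc2a), and of several probes the one brightest on average across the 6 arrays stands for it. All 42 were found, of 19146 named genes on the arrays. By role they were 11 replication genes, 8 regulators of G1 and S phase, 3 inhibitors of cyclin-dependent kinases, and 20 mitosis genes. The mitosis genes were made up of 5 regulators of G2 and M phase and 15 genes of the mitotic machinery.

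The samples were 1 array each of mutant and control interzone, mutant and control growth plate chondrocytes, and mutant and control interdigital tissue. All came from autopods, the hand and foot plates of the limb, of C57BL/6 embryos at E14.5 (embryonic age in days). The mutant is labelled Tgfbr2Prx1KO, and the controls are labelled wild type and littermates. The title of the interdigital mutant sample reads Tbr2Prx1KO, and its genotype label Tgfbr2Prx1KO. By convention that name means deletion of Tgfbr2 with a Cre recombinase driven by the Prx1 promoter, which acts in limb mesenchyme and its descendants and not in epidermis, endothelium or blood cells. Cells were taken by laser-capture microdissection from 2 mutant and 2 control embryos, and the sources used here do not say which embryos, or how many cells, stood behind each array. The interzone is the band of cells at a future joint, the growth plate is the cartilage beside it, and the interdigital tissue lies between the digits. The amplified cDNA was labelled with 1 dye and hybridised to 6 arrays on 2 slides. Slide 1 held the mutant interzone array and the 3 control arrays, and slide 2 held the mutant growth plate and mutant interdigital arrays. Genotype and slide therefore cannot be told apart in the growth plate and interdigital pairs.

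A dividing cell copies its DNA in S phase and separates the copies in mitosis. Replication genes such as the Mcm2 to Mcm7 helicase subunits are switched on by E2F factors as cells leave G1, and mitosis genes such as Cdk1, Plk1 and Bub1 peak later, in G2 and M. In the limb, proliferating chondrocytes lengthen the cartilage, while cells of the interzone and cells that leave the growth plate's dividing zone cycle less.

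Promoters of the 2 classes carry different short sequences, known as E2F sites and as CHR elements (cell cycle genes homology region), often with a CCAAT box nearby. RefSeq promoters of assembly GRCm38.p6, from 250 bases before to 50 bases after the start, matched 32 of the 42 genes with 35 promoters. Both strands were searched. The E2F letters were TTGGCGC or the form TTCGCGC, with TTCCCGC or else TTGCCGC also accepted. The CHR letters were TTTGAA. The box was searched as CCAAT, and it can overlap with E2F letters. E2F letters were in 8 of 11 replication promoters (72.7%) and 3 of 15 mitosis promoters (20%), against 9.57% of all 32851 promoters of that length. CHR letters were in 1 of 11 replication promoters (9.09%) and 11 of 15 mitosis promoters (73.3%), against 17.9% of all. CCAAT was in 81.8% of replication and 86.7% of mitosis promoters, against 37.4% of all. The stretches below run from 150 bases before to 30 after the start, with those letters in capitals on the gene's own strand. They are shown to let the classes be compared: Mcm7 (with 2 starts) and Ttk had the largest differences of their class in the growth plate pair, and Mcm6, Cdk1, Cdc20 and Kif11 were added after their values were seen.
Mcm7 (chr5:138171237-138171416, minus strand): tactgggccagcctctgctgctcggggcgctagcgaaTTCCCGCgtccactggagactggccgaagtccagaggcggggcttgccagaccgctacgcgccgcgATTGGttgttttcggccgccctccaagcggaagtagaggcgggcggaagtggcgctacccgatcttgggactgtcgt
Mcm7 (chr5:138171854-138172033, minus strand): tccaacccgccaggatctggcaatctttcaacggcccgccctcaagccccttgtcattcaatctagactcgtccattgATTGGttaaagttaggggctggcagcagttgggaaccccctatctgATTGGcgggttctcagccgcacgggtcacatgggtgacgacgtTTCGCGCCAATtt
Mcm6 (chr1:128359676-128359855, minus strand): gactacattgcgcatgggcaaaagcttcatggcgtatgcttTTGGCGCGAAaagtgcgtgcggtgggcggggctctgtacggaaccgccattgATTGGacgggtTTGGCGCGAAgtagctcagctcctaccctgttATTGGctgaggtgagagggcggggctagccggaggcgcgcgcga
Ttk (chr9:83834539-83834718, plus strand): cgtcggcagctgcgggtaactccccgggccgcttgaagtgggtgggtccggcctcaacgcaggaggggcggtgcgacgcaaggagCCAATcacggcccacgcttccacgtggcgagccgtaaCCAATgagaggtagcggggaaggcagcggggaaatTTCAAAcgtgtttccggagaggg
Cdk1 (chr10:69352883-69353062, minus strand): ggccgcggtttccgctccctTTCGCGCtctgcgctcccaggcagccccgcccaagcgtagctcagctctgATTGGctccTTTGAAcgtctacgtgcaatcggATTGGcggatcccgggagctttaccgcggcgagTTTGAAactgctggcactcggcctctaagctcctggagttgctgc
Cdc20 (chr4:118437314-118437493, minus strand): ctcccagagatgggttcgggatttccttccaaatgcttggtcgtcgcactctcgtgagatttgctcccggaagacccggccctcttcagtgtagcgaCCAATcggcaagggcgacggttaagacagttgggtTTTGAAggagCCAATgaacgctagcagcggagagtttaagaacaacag
Kif11 (chr19:37376232-37376411, plus strand): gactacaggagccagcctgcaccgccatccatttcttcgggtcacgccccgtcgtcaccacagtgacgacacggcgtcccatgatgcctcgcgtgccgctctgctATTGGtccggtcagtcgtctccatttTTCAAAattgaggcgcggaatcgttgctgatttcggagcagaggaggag
The Mcm6 and Mcm7 stretches hold E2F letters and no CHR letters. Those of Ttk, Cdc20 and Kif11 hold CHR letters within 19 bases of the start and no E2F letters, and that of Cdk1 holds both. A match of letters describes the sequence and does not show that a factor binds there.

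A level here is the log2 processed signal of a probe minus the 75th percentile of its array, so that 0 is the 75th percentile. Levels of a probe can be set against each other between arrays, and levels of different probes cannot. A difference is the mutant level minus the control level, and the counts below take genes with a difference of 2-fold or more and a signal well above background on both arrays. With 1 array per tissue and genotype no difference within a tissue has a replicate check, and "higher" and "lower" describe the 2 arrays. Spots of 1 probe repeated on an array had a median SD of 0.07 to 0.10 on the log2 scale, which covers the array's own noise only. In tissue captured in bulk, fewer dividing cells and less RNA per dividing cell cannot be told apart.

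The share of spots well above background ran between 72.3% and 88.3%, lowest on the control growth plate array, which also had the lowest median signal (103 units, against 340 to 502 on the others). Tgfbr2, the targeted gene, had levels of 2.24 in mutant and 2.42 in control interzone, 1.20 in mutant and -2.40 in control growth plate, and 1.92 in mutant and 2.50 in control interdigital tissue. These are levels of the brightest of its 3 probes. The second probe differed by 0.95 in interzone, 1.72 in growth plate and 0.06 in interdigital tissue, higher in the mutant each time, and the third was well above background on both arrays only in interdigital tissue, where it differed by -3.60. Tgfbr2 was thus not 2-fold lower in any pair at its 2 brighter probes and was higher in mutant growth plate at both, and no source used here says where the probes lie relative to the deleted part, so "mutant" and "control" below mean the arrays labelled so. Cartilage markers summed to 51.6 in mutant and 449 in control growth plate, in units of the array's 75th percentile. Gdf5, an interzone gene, had its highest level, 4.33, in control interzone, and 2.10 in mutant interzone. The sum of 8 interzone markers was also highest in control interzone, at 56.2, but Osr1, Wnt9a and Trps1 were highest on other arrays. Interdigital mesenchyme markers summed to 21.7 in control interzone and 13.1 in control interdigital tissue.

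**Figure D1:**
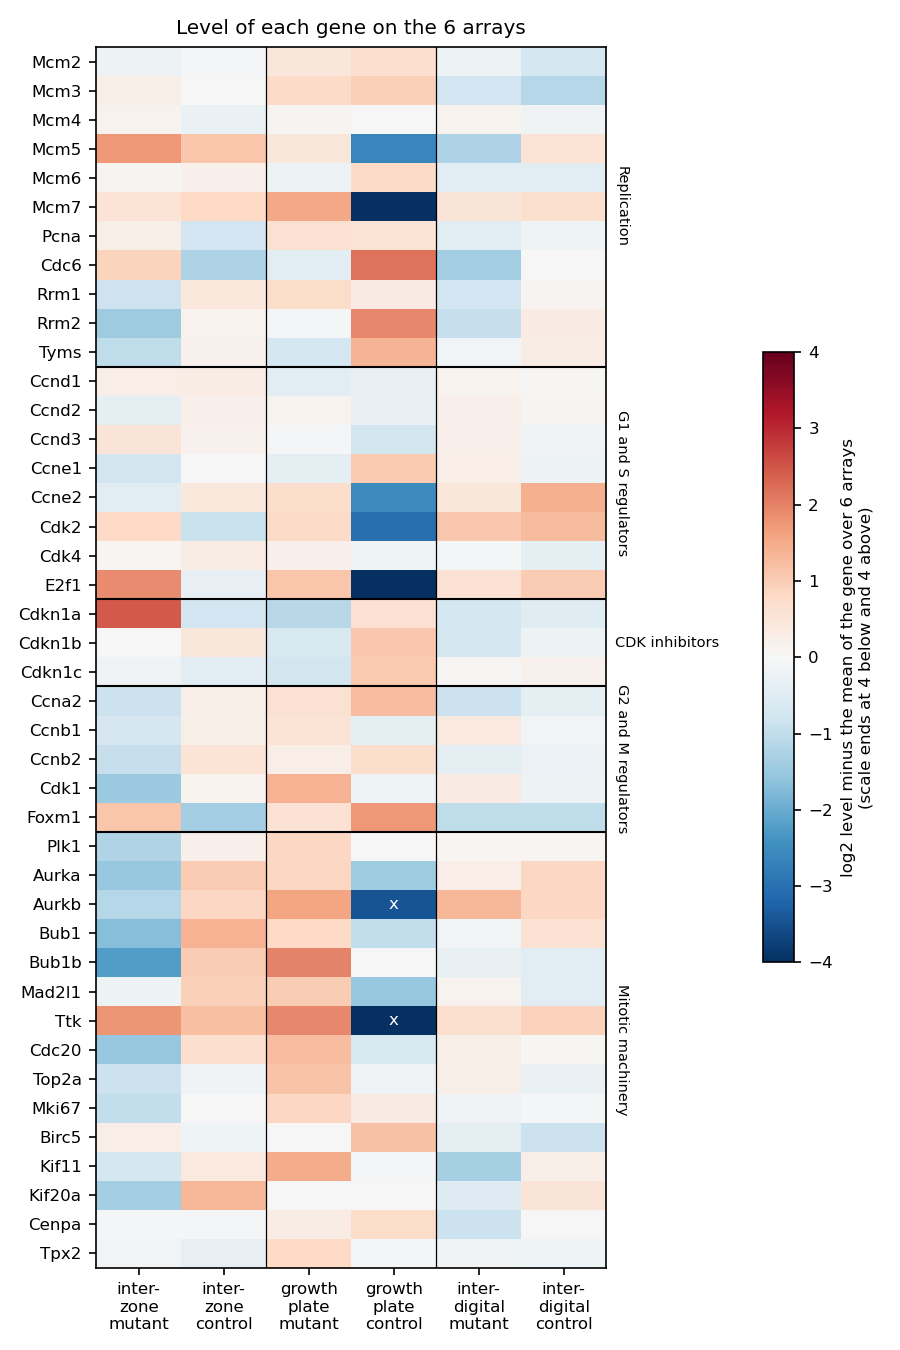
Level of each of the 42 genes (rows, by role) on the 6 arrays (columns), as the log2 level minus the gene's mean over the arrays, with an x where the probe was not well above background. The mutant interzone column is below the gene's mean for most mitosis genes and the mutant growth plate column above it, and the control growth plate column holds the extreme values of Mcm7, E2f1 and Ttk.

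In the interzone pair most mitosis genes, and fewer of the replication genes, were lower in the mutant. The difference between the classes was not tested. Of the 20 mitosis genes, 13 were at least 2-fold lower in mutant interzone and 1 was higher, with a median difference of -1.13. Of the 11 replication genes, 3 were lower and 1 was higher, with a median of -0.08. Over all 42 genes 16 were lower and 5 higher, which is 38.1% and 11.9%, where of all 16376 genes measured on both arrays 22.7% were lower and 17.8% higher, with a median of -0.11. The gap between the mitosis and replication medians was -1.05, a value that no constant scaling of an array can change. With the deposited ratio table, whose scaling moves the median of all genes to 0.12, 10 members were lower and 6 higher.

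The spindle checkpoint holds chromosome separation until every chromosome is attached, and several of its genes were lower in mutant interzone. Bub1b, a checkpoint kinase-like protein (BubR1), had a level of -2.54 in mutant and 0.72 in control interzone, a difference of -3.26. Bub1, the related kinase at the kinetochore, had -3.44 in mutant and -0.35 in control interzone, 8.53-fold lower. Cdc20, the activator of the anaphase-promoting complex that the checkpoint restrains, had -1.25 in mutant and 0.92 in control interzone, a difference of -2.17. Each of these 3 genes was lower on the mutant interzone array than on any of the other 5 arrays. Mad2l1, a checkpoint protein that binds Cdc20, was 2.23-fold lower, with 0.56 in mutant and 1.71 in control interzone. Ttk, the checkpoint kinase also called Mps1, did not follow them, with 1.55 in mutant and 0.99 in control interzone.

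Mitotic kinases and motors went the same way. Kif20a, a kinesin of cytokinesis, had -0.36 in mutant and 2.33 in control interzone, 6.42-fold lower. Aurka, a kinase of spindle poles, had -2.75 in mutant and -0.23 in control interzone, 5.72-fold lower. Aurkb, the kinase of the chromosomal passenger complex, had -4.69 in mutant and -2.72 in control interzone, a difference of -1.97. That of Aurkb turned to 1.02 with normexp background correction, so its direction depends on how the background of a dim probe was treated. Plk1, a kinase of mitotic entry and exit, was 2.67-fold lower, with 0.22 in mutant and 1.64 in control interzone. Kif11, the spindle motor Eg5, was 2.11-fold lower at its brightest probe, with -0.63 in mutant and 0.45 in control interzone, while its second probe differed by 1.13 and its dimmest was well above background only in the mutant. Mki67, the proliferation antigen Ki-67, was 2.0-fold lower, with 1.32 in mutant and 2.32 in control interzone.

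Of the remaining machinery, Top2a, which untangles DNA, had -0.13 in mutant and 0.56 in control interzone, under 2-fold. Birc5, the survivin subunit of the passenger complex, Cenpa, the centromeric histone, and Tpx2, an activator of Aurka, differed by 0.41, 0.03 and 0.23. In all, 10 of the 15 machinery genes were at least 2-fold lower in the mutant and none was at least 2-fold higher.

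Among the regulators of G2 and M, Cdk1, the kinase that starts mitosis, had -0.80 in mutant and 0.83 in control interzone, 3.1-fold lower at its brightest probe, and its second probe differed by 2.10. Its cyclin partners Ccnb2 and Ccna2 were 2.75-fold and 2.14-fold lower. Ccnb1 differed by -0.90 at its brightest probe and by -1.50 and -1.62 at its other probes. Foxm1, a factor that switches on mitosis genes in G2, went the other way, with 0.64 in mutant and -1.87 in control interzone, 5.7-fold higher.

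The helicase genes showed little of this at their brightest probes. Mcm2, Mcm3, Mcm4, Mcm6 and Mcm7 differed by -0.13, 0.23, 0.40, -0.08 and -0.24, and Mcm5 by 0.64. The second probe of Mcm3 differed by 1.23, and that of Mcm4 was well above background only in the mutant. Pcna, the sliding clamp of the replication fork, was just under the 2-fold limit, with 2.43 in mutant and 1.45 in control interzone. The genes that were lower make nucleotides: Rrm2, the regulated subunit of ribonucleotide reductase (2.94-fold), its large subunit Rrm1 (2.35-fold) and Tyms, thymidylate synthase (2.25-fold). Cdc6, which loads the helicase onto origins, was 4.32-fold higher, with 0.20 in mutant and -1.91 in control interzone.

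Of the G1 and S regulators, E2f1, an activating E2F factor, had 2.37 in mutant and 0.17 in control interzone, 4.57-fold higher. Cdk2, a kinase of S phase entry, was 3.27-fold higher at its brightest probe, and its second probe differed by -0.69. At their brightest probes the D cyclins Ccnd1, Ccnd2 and Ccnd3, their kinase partner Cdk4, and the E cyclins Ccne1 and Ccne2 stayed within 2-fold. These differences lay between -0.84 and 0.35. At other probes Ccnd2 differed by -0.89 and -1.23, Ccne1 by -1.02 and Ccne2 by -0.71. Cdkn1a, the inhibitor p21, had 2.80 in mutant interzone and -0.42 in control interzone, 9.33-fold higher, and its mutant interzone level was above those of the other 5 arrays, which lay between -0.76 and 0.94. The inhibitors Cdkn1b (p27) and Cdkn1c (p57) differed by -0.47 and 0.27.

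Other genes of the same pathways followed the split in part. Of 44 other mitosis genes measured on both interzone arrays, 18 were lower and 3 higher (median -0.71), and of 40 other replication genes 8 were lower and 8 higher (median -0.15). The largest differences were at Pttg1, the separase inhibitor securin, with -6.27 in mutant and -0.58 in control interzone, 51.4-fold lower, and at Dlgap5, a spindle protein, 19.2-fold lower. The mutant level of Pttg1 was near the lowest level well above background on its array, -6.50. Gins1, a subunit of the replication helicase complex, was 18.2-fold lower. Anln, a cytokinesis scaffold, Cit, a cytokinesis kinase, and Pold1, the catalytic subunit of DNA polymerase delta, were 16.5-fold, 4.82-fold and 4.48-fold higher.

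Tissue markers differed between the same 2 arrays. The interzone's own markers were lower in mutant interzone for 5 of 7 genes measured on both arrays, and summed to 16.1 in mutant and 56.2 in control interzone. Interdigital mesenchyme markers were lower for 4 of 7 and higher for 1 (9.72 in mutant and 21.7 in control interzone). Epidermal markers were higher in mutant interzone for 7 of 8 genes and summed to 112 there and 17.0 in control interzone. Skeletal muscle markers were higher for 5 of 6 (37.1 in mutant and 14.0 in control interzone) and endothelial markers for 3 of 6. Macrophage markers were higher for 4 of 6 and lower for 1, Ptprc, with -6.12 in mutant and 0.78 in control interzone. Cartilage markers were lower for 5 of 8 (64.0 in mutant and 127 in control interzone). Erythroid markers summed to 120 in mutant and 167 in control interzone. The part of these markers in the differences of the cell cycle genes was not tested.

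**Figure D2:**
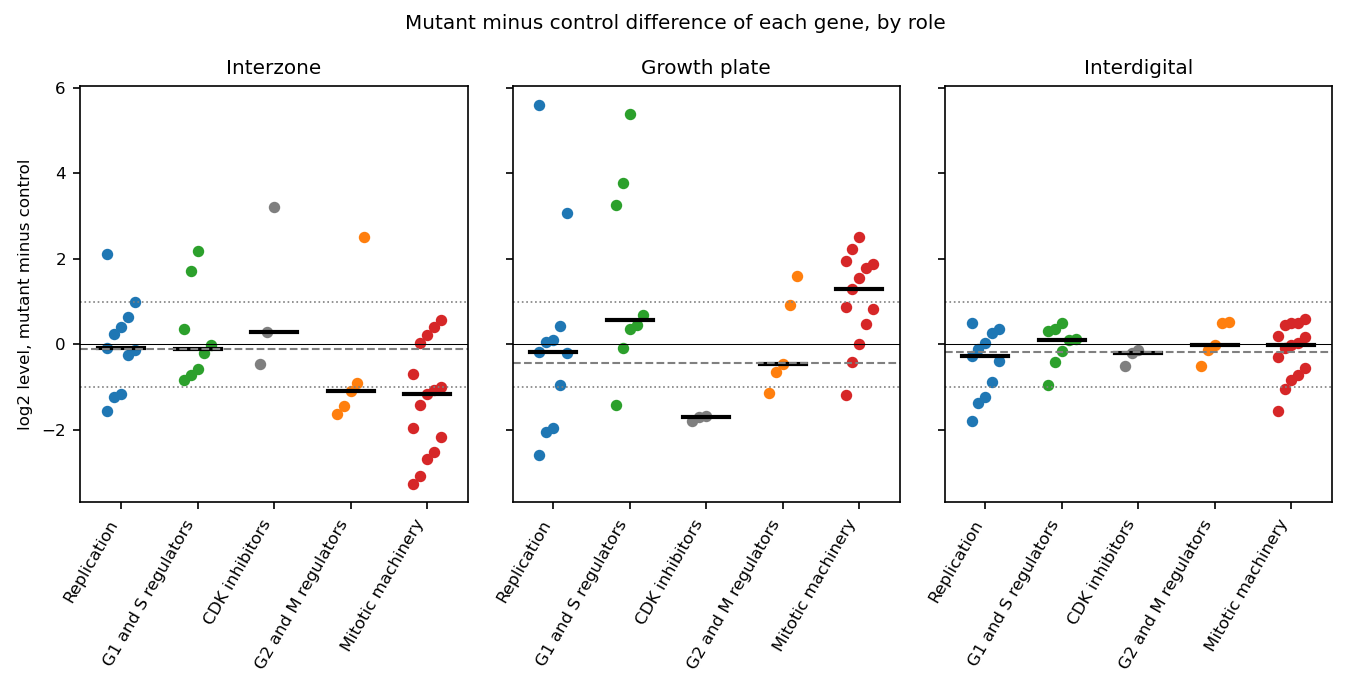
Mutant minus control difference (log2 level) of each gene by role, 1 panel per tissue, with a bar at each role's median, a dashed line at the median of all genes and dotted lines at 2-fold. Mitotic machinery lies mostly below 0 in interzone (median -1.16), mostly above 0 in growth plate (median 1.30, with the bounds of Ttk and Aurkb left out) and around 0 in interdigital tissue (median -0.01).

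In the growth plate pair more mitosis genes were higher in the mutant than lower. Of 18 mitosis genes measured on both arrays, 8 were at least 2-fold higher in mutant growth plate and 2 were lower, with a median difference of 0.90. With the deposited ratio table, 2 were higher and 6 lower, and their median was -0.22 where that of all genes was -1.56. Ttk and Aurkb were well above background only in the mutant and are bounds. The 11 replication genes were divided, with 2 higher, 3 lower and a median of -0.18. Of all 40 members measured on both arrays 13 were higher and 9 lower, which is 32.5% and 22.5%, against 22.2% and 32.6% of all 15885 genes, whose median was -0.45. The gap between the mitosis and replication medians was 1.08. Scaling moved the counts: the deposited ratio table gave 7 members higher and 19 lower, quantile normalization 19 higher and 6 lower, and a percentile over probes detected on all arrays 17 higher and 7 lower.

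Of the 13 mitosis genes that were lower in mutant interzone, 7 were measured as at least 2-fold higher in mutant growth plate. Cdc20 had 1.48 in mutant and -0.39 in control growth plate, 3.66-fold higher. Bub1b had 1.68 in mutant and -0.27 in control growth plate, and Bub1 had -0.94 in mutant and -2.74 in control growth plate. They were 3.86-fold and 3.47-fold higher. Mad2l1 was 5.72-fold higher at its brightest probe, with 1.76 in mutant and -0.76 in control growth plate, and its second probe differed by -0.43. Ttk, with 1.70 in mutant growth plate and not well above background in control growth plate, was at least 301-fold higher, and Aurkb at least 23.7-fold higher. Such a bound sets the mutant level against the higher of the gene's own control level and the lowest level well above background on the control array. The Ttk probe was well above background on all 5 other arrays, at 0.42 to 1.70.

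Aurka had -0.44 in mutant and -2.68 in control growth plate, 4.73-fold higher. Kif11 was 2.94-fold higher, with 1.57 in mutant and 0.02 in control growth plate. Top2a was 2.47-fold higher, with 1.87 in mutant and 0.56 in control growth plate, and differed by -0.17 as a mean over its probes. Cdk1 had 2.09 in mutant and 0.50 in control growth plate, 3.01-fold higher at its brightest probe, and its second probe differed by 0.07. Ccnb1, Ccnb2 and Ccna2 differed by 0.92, -0.46 and -0.64 at their brightest probes, and Ccnb1 by 2.31 and 3.84 at its other probes. The mitosis genes that were lower were Birc5, 2.26-fold, with 2.94 in mutant and 4.12 in control growth plate, and Foxm1, 2.2-fold, with 0.12 in mutant and 1.26 in control growth plate. Plk1, Tpx2, Mki67, Kif20a and Cenpa stayed within 2-fold, at 0.83, 0.87, 0.48, 0.01 and -0.42.

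The widest measured differences in the growth plate pair were at 5 genes of G1 and S phase or replication. Each had its lowest level of the 6 arrays in control growth plate, where genes picked for such a difference mostly will. Of all 42 members 9 were lowest on that array, as were 3309 of the 15318 genes measured on all 6 arrays. Mcm7 had 3.01 in mutant and -2.59 in control growth plate, 48.6-fold higher, while the other 4 arrays lay between 1.99 and 2.27. E2f1 had 1.60 in mutant and -3.78 in control growth plate, 41.7-fold higher, with the other 4 arrays between 0.17 and 2.37. Cdk2 had -0.44 in mutant and -4.22 in control growth plate, and its second probe went the other way, at -2.64. Ccne2, the second E cyclin, was 9.65-fold higher, with -0.58 in mutant and -3.85 in control growth plate. Mcm5 was 8.39-fold higher, with 0.98 in mutant and -2.09 in control growth plate. The helicase subunits work as a ring of Mcm2 to Mcm7. At their brightest probes Mcm2, Mcm3 and Mcm4 differed by -0.21, -0.18 and 0.09 in the same pair, and Mcm6 by -0.96. The second probe of Mcm3 differed by 5.12, with 0.94 in mutant and -4.18 in control growth plate. That of Mcm4 was well above background only in the mutant, so the contrast within the ring depends on the probe. Mcm7 and Mcm5 each rest on 1 probe.

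The replication genes at least 2-fold lower in mutant growth plate were Cdc6, Tyms and Rrm2. Cdc6 had -1.09 in mutant and 1.50 in control growth plate, 6.04-fold lower. Tyms was 4.19-fold lower, with -0.38 in mutant and 1.69 in control growth plate. Rrm2 was 3.89-fold lower, with -1.18 in mutant and 0.77 in control growth plate, while Rrm1 and Pcna differed by 0.43 and 0.06. Ccne1, the first E cyclin, was 2.7-fold lower, with 1.41 in mutant and 2.85 in control growth plate. Ccnd1, Ccnd2, Ccnd3 and Cdk4 stayed within 2-fold.

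All 3 inhibitors were lower in mutant growth plate. Cdkn1c, which marks cartilage cells leaving the cycle, had 4.12 in mutant and 5.93 in control growth plate, 3.49-fold lower. Cdkn1a had -0.76 in mutant and 0.94 in control growth plate, 3.25-fold lower. Cdkn1b had 0.79 in mutant and 2.48 in control growth plate, 3.23-fold lower. Cdkn1c and Cdkn1b were highest on the control growth plate array of all 6 arrays, and with the mean over its 3 probes Cdkn1b differed by 0.16.

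Of 44 other mitosis genes in the growth plate pair 11 were higher and 10 lower (median -0.26), and of 39 other replication genes 11 were higher and 12 lower (median -0.71), so the wider mitosis list did not repeat the surplus of higher genes. Anln was 183-fold higher, Spc25, a kinetochore subunit, 119-fold, and Cdc45, a helicase subunit, 79.8-fold. Pold2, a polymerase delta subunit, Aspm, a spindle pole protein, and Smc2, a condensin subunit, were 6.79-fold, 6.67-fold and 6.32-fold lower. The control growth plate levels of Anln, Spc25 and Cdc45 were -5.69, -5.60 and -5.93, where the lowest level well above background on that array was -6.54.

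The same pair differed in its tissue markers. All 8 cartilage markers were lower in mutant growth plate, as were all 6 muscle markers, which summed to 14.1 in mutant and 51.5 in control growth plate. Epidermal markers summed to 121 in mutant and 55.0 in control growth plate, and Cdh1 and Trp63 were not well above background in the control. Endothelial markers summed to 5.84 in mutant and 0.78 in control growth plate, where 3 of 6 were not well above background. Their part in the differences of the cell cycle genes was not tested.

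In the interdigital pair few of the genes differed. No member was at least 2-fold higher and 5 were lower (11.9% of 42), against 10% and 16% of all 17473 genes, whose median was -0.18. The median was -0.01 over mitosis genes and -0.27 over replication genes. Mcm5 was 3.46-fold lower, with -0.70 in mutant and 1.09 in control interdigital tissue. Cdc6 was 2.61-fold lower, with -2.07 in mutant and -0.69 in control interdigital tissue, and Rrm2 2.35-fold lower, with -2.06 in mutant and -0.82 in control interdigital tissue. Among mitosis genes, Kif11 was 2.98-fold lower, with -1.26 in mutant and 0.31 in control interdigital tissue, but its second probe differed by 0.73. Kif20a was 2.07-fold lower, with 0.48 in mutant and 1.53 in control interdigital tissue. The checkpoint genes Bub1, Bub1b, Mad2l1, Ttk and Cdc20 lay between -0.73 and 0.59.

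Of the other pathway genes, 5 of 45 mitosis genes and 4 of 41 replication genes passed 2-fold in the interdigital pair. Ncapg, a condensin subunit, and Prim2, a primase subunit, were 2.93-fold and 2.60-fold higher, and Pbk, a mitotic kinase, differed by less than 2-fold. Smc2, Pole, the catalytic subunit of polymerase epsilon, and Cit were 5.08-fold, 3.55-fold and 2.73-fold lower. The 8 epidermal markers were higher in mutant interdigital tissue or measured only there, and summed to 111 in mutant and 2.28 in control interdigital tissue. The part of these markers in the levels of the cell cycle genes was not tested.

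**Figure D3:**
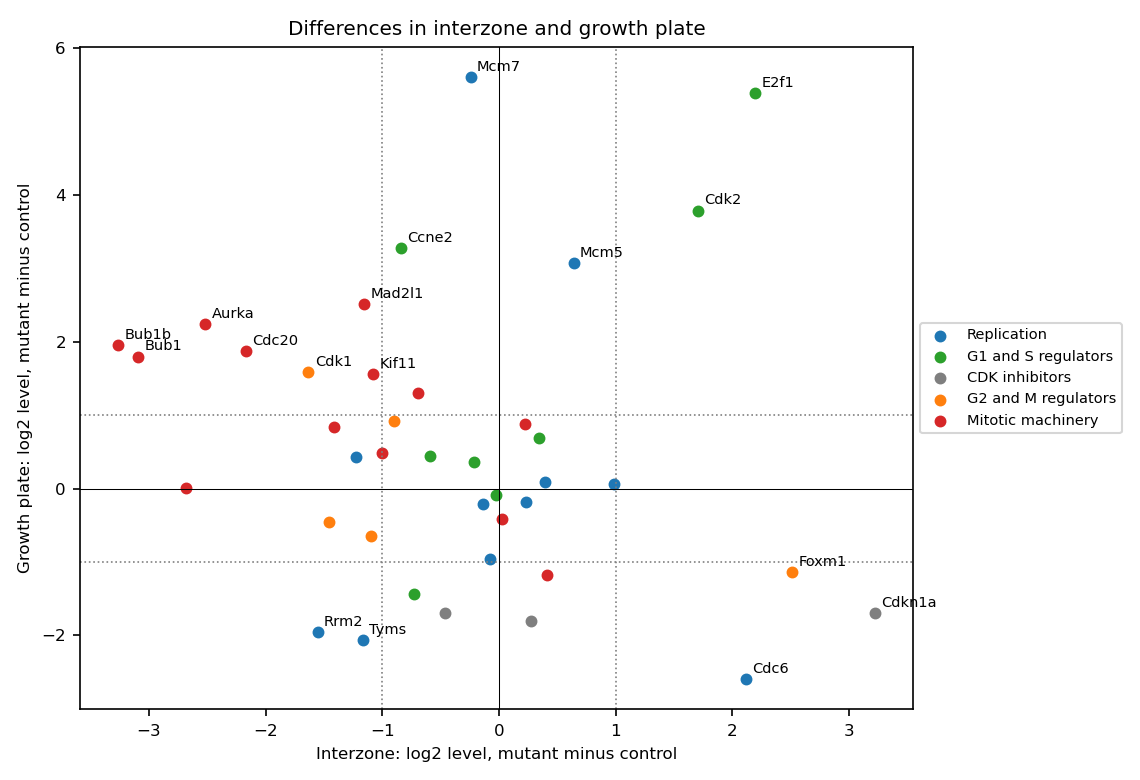
Mutant minus control difference (log2 level) in interzone, on the x axis, and growth plate, on the y axis, for the 40 members measured on all 6 arrays, coloured by role, with dotted lines at 2-fold. The 7 named mitosis genes at the upper left were lower in mutant interzone and higher in mutant growth plate, and Cdc6, Cdkn1a and Foxm1 at the lower right had the opposite signs.

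Across the interzone and growth plate pairs, which share no array, 7 mitosis genes were at least 2-fold lower in mutant interzone and at least 2-fold higher in mutant growth plate: Cdk1, Aurka, Bub1, Bub1b, Mad2l1, Cdc20 and Kif11. They were 17.5% of the 40 members measured on all 6 arrays, against 5.76% of all 15318 such genes. At a second probe Cdk1 and Kif11 in interzone and Mad2l1 in growth plate had the opposite sign. No replication gene had the 7 genes' pattern. Cdc6, Cdkn1a and Foxm1 had the opposite one, higher in mutant interzone and lower in mutant growth plate, as did 4.61% of all genes. The correlation of the differences in the 2 pairs was -0.63 over 18 mitosis genes, -0.12 over 40 members and 0.08 over all genes. It is given as a description, since each pair's genes share the same 2 libraries.

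Rrm2 was the one member at least 2-fold lower in all 3 mutant tissues, a pattern of 1.88% of all genes. No member was at least 2-fold higher in all 3. The median levels by array show the same shape. For mitosis genes they were 0.20 in mutant and 0.95 in control interzone, 1.70 in mutant and 0.67 in control growth plate, and 0.48 in mutant and 0.46 in control interdigital tissue. For replication genes they were 0.48 in mutant and 0.56 in control interzone, 0.95 in mutant and 1.14 in control growth plate, and -0.07 in mutant and 0.62 in control interdigital tissue.

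Tissues were also set against each other within 1 genotype. The mutant interzone array lay on slide 1 and the other mutant arrays on slide 2, so tissue and slide cannot be told apart where mutant interzone is compared. With slide as a covariate in the linear model described below, the interzone minus growth plate term, over both genotypes, was positive for 20 members and negative for 22, in place of 13 and 29. The interzone minus interdigital term was positive for 32 and negative for 10, in place of 21 and 21. All 20 mitosis genes had a higher level in mutant growth plate than in mutant interdigital tissue, where 49.2% of all genes did, and 8 of them were at least 2-fold higher (median difference 0.92). Of the replication genes 5 were higher and none lower by that measure (median 0.98). Over all members 13 were higher and none lower, against 13.2% and 16.2% of all genes. Between mutant interzone and mutant growth plate, 15 of 20 mitosis genes were at least 2-fold lower in interzone and none higher (median -1.63), and 2 replication genes were lower and 2 higher. Over all members 18 were lower and 3 higher, against 18.2% and 21.3% of all genes. Between mutant interzone and mutant interdigital tissue, 9 mitosis genes were lower in interzone and 2 higher (median -0.84), and members as a whole had 10 lower and 7 higher, against 18% and 18.2% of all genes.

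The 3 control arrays lay on 1 slide. Of the 20 mitosis genes 17 had a higher level in control interzone than in control interdigital tissue, where 52.5% of all genes did, with a median difference of 0.31. Few of these differences reached 2-fold: 2 mitosis genes were higher in control interzone by that measure and none lower. Members as a whole were 3 higher and 4 lower (7.14% and 9.52%), against 15% of all genes in each direction. Between control interzone and control growth plate, 5 mitosis genes were higher in interzone and 2 lower (median 0.28), and 10 members were higher and 9 lower, against 24.9% and 23.9% of all genes. Between control growth plate and control interdigital tissue, replication genes were mostly higher in growth plate, with 6 higher and 2 lower (median 1.07), while mitosis genes were 3 higher and 3 lower (median 0.06). Members as a whole were 12 higher and 8 lower in that comparison, against 24.9% and 24.8% of all genes. Whether the tissue differences differ between genotypes was not tested.

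Ranked over the 6 arrays, 10 of the 18 mitosis genes measured on every array were highest on the mutant growth plate array and 11 were lowest on the mutant interzone array, against 11.1% and 17.5% of all genes. Without the control growth plate array all 20 were measured and the counts were 14 and 12, against 17.1% and 23.2% of all genes, a check added after the values were seen. Of the replication genes, 6 of 11 were highest on the control growth plate array, as were 35.8% of all genes. The median range over the 6 arrays was 2.52 on the log2 scale for mitosis genes, 2.08 for replication genes and 2.16 for all genes measured on every array.

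A linear model over all 6 arrays (limma, with tissue and genotype as terms and Benjamini-Hochberg adjustment over 17677 genes) called no gene for mutant against control or for any tissue pair, 0% of those tested. At an unadjusted p under 0.05 it had 1166 genes for genotype, of which 1 was a member, and 1138, 532 and 988 genes for interzone against growth plate, interzone against interdigital tissue and growth plate against interdigital tissue. The member for genotype was Rrm2, lower in the mutant in 3 of 3 tissues, by 1.58 ± 0.46 (SE) on the log2 scale (limma adjusted p = 0.68). In this fit the residual is the difference of the genotype effect between tissues, on 2 degrees of freedom, and the tissues may come from the same embryos. The model tests a shared genotype effect, which the opposite differences at Cdc20 or Bub1b do not have. For the tissue terms, the lowest adjusted p among members was 0.76 for interzone against growth plate, 1.0 for interzone against interdigital tissue and 0.86 for growth plate against interdigital tissue, all from limma.

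**Figure D4:**
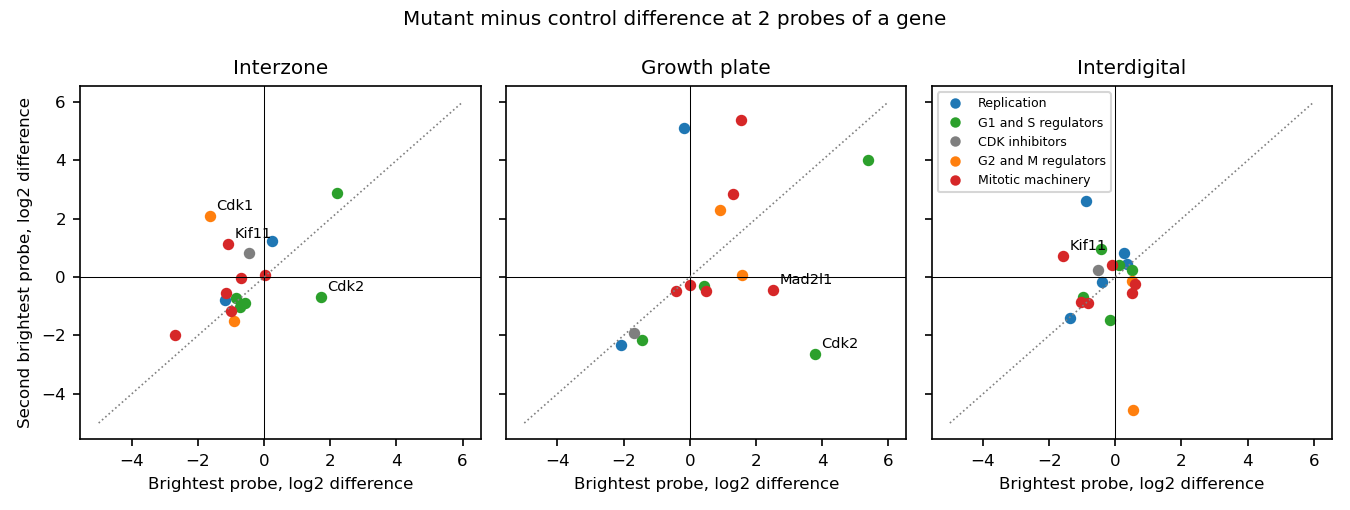
Mutant minus control difference (log2 level) at the brightest probe (x axis) and the second brightest (y axis) for members with both probes well above background on both arrays, 1 panel per tissue, coloured by role, with a dotted line of equal values. Named genes were past 2-fold at the brightest probe and of opposite sign at the second: Cdk1, Kif11 and Cdk2 in interzone, Cdk2 and Mad2l1 in growth plate, and Kif11 in interdigital tissue.

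For 19 members the arrays held more than 1 probe, and a second probe is the nearest thing to a repeat measurement that the design offers, though it reads the same amplified sample. Of the members past 2-fold at the brightest probe with a measured second probe, 5 of 8 had the same sign at both in interzone, 7 of 9 in growth plate and 2 of 3 in interdigital tissue. Over all genes the shares were 61.6%, 60.5% and 68.2%. E2f1 kept its direction, with second-probe differences of 2.88 in interzone and 4.02 in growth plate. So did Kif20a in interzone (-1.97), Mki67 in interzone (-1.15) and Tyms in interzone and growth plate (-0.77 and -2.34). The third probe of Tyms did not follow, at 0.77 in interzone and -0.02 in growth plate. Cdk1 did not keep its direction, with 2.10 at its second probe in interzone, nor did Kif11, with 1.13. Bub1, Bub1b, Cdc20, Aurka, Plk1, Rrm2 and Mcm7 each had 1 probe, so that their values could not be set against another probe.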

How the data were processed

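The authors deposited scanner files with the intensity of each spot, from Agilent Feature Extraction 9.5.1.1 and background-subtracted, per the file headers. Their deposited table holds, for each array, the processed signal as a ratio to that array's median, as found by setting it against the scanner values. The scanner software's mark of spots well above background is also per the file headers. Captured RNA was amplified by PCR with a commercial procedure that is not disclosed (SuperAmp), per the labels' protocols, and 250 ng of product were labelled. Groups came from the titles, because 5 sample descriptions named irradiated human blood.

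From these files, control and outlier spots were left out, spots of a probe were averaged, and log2 processed signals were set relative to the array's 75th percentile. Gene names in the files were matched to RefSeq symbols (24524 probes) or older names (7767), and 8883 probes without a match were left out. The limma model (version 3.58.1 in R 4.3.3) was fitted to genes well above background on at least 3 of 6 arrays. The threshold was 0.05 on adjusted p. The fit was first tested on simulated data, with pass conditions at low noise only. How many changed genes it recovers at the noise of these arrays is not given here. The model's p-values measure the spread between these arrays only. All 42 members are named. Among other pathway genes, the text names, for each tissue, the 3 most different ones each way. The members and lists were chosen with earlier results of these data known. Alternatives were normexp background correction, quantile normalization, another percentile, the deposited table, other probes, a 4-fold threshold, no filter on dim probes, and slide as a covariate.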

Additional observations from a re-analysis of the deposited data

Results flagged for a closer look

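Some genes differed in opposite directions between mutant and control in 2 tissues. Each value here is the difference in the first tissue less that in the second, on the log2 scale, and with 1 array per group these differences were not tested. Between interzone and growth plate it was -5.21 for Bub1b, -4.89 for Bub1, -4.76 for Aurka, -4.04 for Cdc20, -3.67 for Mad2l1, -3.22 for Cdk1 and -2.63 for Kif11. In the other direction it was 4.92 for Cdkn1a, 4.71 for Cdc6 and 3.65 for Foxm1. Between interzone and interdigital tissue it was 3.49 for Cdc6, and between growth plate and interdigital tissue 4.86 for Mcm5 and 3.13 for Kif11. Within a single tissue, the mutant minus control difference had the opposite sign at a second probe for Cdk1 and Kif11 in interzone. The same held for Mad2l1 in growth plate and Kif11 in interdigital tissue.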

How the results depend on the processing

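The gap between the mitosis and replication medians kept its sign under the scalings, background correction, filters and probe averaging tried. It was -1.06 to -1.0 in interzone, 0.78 to 1.29 in growth plate and 0.11 to 0.30 in interdigital tissue. The deposited table and the other percentile scale an array by a constant, so they could not change this gap. Dropping the filter on dim probes could change it only in growth plate, where Ttk and Aurkb then entered. Only normexp correction, quantile normalization and probe averaging could move it in every pair. The mitosis median in interzone stayed between -1.16 and -0.89. With the deposited table, 10 members were lower in mutant interzone in place of 16, and in growth plate 7 were higher and 19 lower in place of 13 and 9. The growth plate medians were then -1.30 for replication and -0.22 for mitosis genes, relative to a median of all genes of -1.56, and the growth plate minus interdigital median of the members was 1.16 in place of 0.35. That table's limma fit called 13 genes, none a member. At 4-fold, 5 members were lower in interzone, 7 higher and 2 lower in growth plate, and 0 lower in interdigital tissue. At the second probe, 4 were lower in interzone, 5 higher and 4 lower in growth plate, and 1 higher and 3 lower in interdigital tissue, where fewer members have a value.

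Members past 2-fold changed sign in 12 of 308 comparisons, and 35 others fell short of 2-fold. Many of these comparisons could not change a value. All 48 without the filter on dim probes used the same levels, and averaging over probes cannot move the 23 members with 1 probe. At the second brightest probe alone, 6 changed sign, 4 fell short of 2-fold and 10 stayed past it. At the second probe Cdk2 was at -0.69 in interzone and -2.64 in growth plate, Cdk1 at 2.10 and Kif11 at 1.13 in interzone, Mad2l1 at -0.43 in growth plate and Kif11 at 0.73 in interdigital tissue. With the mean over probes Cdk1 was at 0.23 and Kif11 at 1.12 in interzone, Cdkn1b at 0.16 and Top2a at -0.17 in growth plate, and Kif11 at 0.19 in interdigital tissue. Aurkb in interzone was at 1.02 with normexp correction. The cause was not tested. Of all genes past 2-fold, 44.0% were higher in interzone, 72.1% with normexp correction and 54.4% with the deposited table. In growth plate the share was 40.4%, 16.8% with the deposited table, 54.5% with the percentile over commonly detected probes and 50.8% with averaged probes, and in interdigital tissue 38.7%, 51.3% with the deposited table and 49.2% with quantile normalization. Leaving out each tissue in turn, or adding slide as a covariate, limma called 0 genes each time. No paired analysis was possible because each group has 1 array, apart from the limma fit above, which sets mutant against control within each tissue. The growth plate pair is limited by its dim control array and by a slide that cannot be told apart from genotype.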
